A study of Mus musculus with 30 samples.

Results

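Nrn1, Trub1, Gem and Trib2 were followed after knockdown of the histone demethylase gene Kdm5c in 3T3-L1 preadipocytes. These transcripts were 4 of the 12016 genes tested and were chosen because their levels were among the furthest below control 24 h after transfection. The 24 h comparison therefore describes how they were picked and was not tested here, and the tests below use the 48 h and 72 h libraries. In the 24 h ranking from the lowest log2 fold change upward, Nrn1 held rank 4 (−1.07), Trub1 rank 7 (−0.90), Gem rank 8 (−0.88) and Trib2 rank 14 (−0.75). The first 14 places also held 10 genes outside this group, Kdm5c among them, and Echdc1 at rank 16 (−0.66) lay just outside.

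3T3-L1 is a line of mouse fibroblasts from which adipocytes can be made in culture. Sub-confluent cells were reverse-transfected with RNAiMAX, 3 days before the day counted as 0 of differentiation. They received 50 nM of Dharmacon siRNA against Kdm5c or of non-targeting siRNA, here called scramble. Strand-specific mRNA libraries were made at 24 h (day −2), 48 h (day −1) and 72 h (day 0). Each of the 6 groups of siRNA and day held 5 libraries, 30 in all, and all cells went through the same transfection with the same siRNA dose.

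As background, the members have different jobs. Nrn1 encodes neuritin, a small GPI-anchored protein of the cell surface that is known for promoting neurite growth and is induced by neuronal activity and neurotrophins. Trub1 encodes a pseudouridine synthase that turns a uridine of the T loop of tRNAs, and of some mRNAs, into pseudouridine. Gem encodes a GTPase of the RGK family, which binds calmodulin, lowers the activity of voltage-gated calcium channels through their beta subunits, and acts on the actin cytoskeleton. Trib2 encodes a Tribbles pseudokinase, a scaffold that brings substrates such as C/EBP alpha to the ubiquitin ligase COP1 and binds AKT, and it has been described as a brake on adipocyte differentiation.

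Library totals ran from 25217905 to 33725717 reads, and levels are given in CPM, a gene's reads scaled to a common library total. The lowest number of reads behind any value of the 4 genes was 150. Kdm5c itself stood at 16.2%, 18.9% and 25.2% of the scramble mean on days −2, −1 and 0. The summed level of 10 fibroblast and preadipocyte markers ran from 16354 to 18233 CPM in the day −2 libraries. On day 0 it ran from 22730 to 24770 CPM in scramble and from 21039 to 23398 CPM in the knockdown. Of the 9 tested, 3 were called higher and 4 lower in the knockdown on day −1. Without the 3 libraries described below, these counts were 2 and 0. On day 0 Ly6a and Thy1 were called higher, and Zfp423, Dlk1, Col3a1 and Pdgfrb lower. Over all genes, 18.8% were called higher and 16.8% lower on day −1, and 19.2% and 15.7% on day 0. The part of this sum in the members' course was not tested. Of the markers of other cells, Cfd (adipocytes), Adgre1 (macrophages), Epcam (epithelium) and Myod1 (muscle) had 0 reads in every library, but others were measured. The 8 adipocyte markers summed to at most 46.1 CPM, and on day 0 Fabp4 was called higher and Lipe lower in the knockdown. The 5 macrophage markers summed to 2.60 to 3.39 CPM in scramble and 3.93 to 5.70 CPM in the knockdown on day 0, when Cd68 and Csf1r were called higher (log2 0.91 and 0.52, edgeR adjusted p = 5.11e-07 and 0.0348). Of the 5 endothelial markers, which summed to at most 2.58 CPM, Kdr was called higher on day −1, though not without the 3 libraries described next, and of the 5 neuronal markers Map2 was called lower on day 0. The 5 muscle markers summed to between 32.2 and 36.2 CPM on day −2, nearly all of it Acta1, and to at most 6.93 CPM later, with no call between the arms. The part of these markers in the members' values was not tested. On day −1 scramble replicates 1 to 3 stood apart on the first principal component, at 7.79 to 8.39 against 2.37 and 2.78 for replicates 4 and 5, and the day −1 effects of the members and the listed genes, with the changes from day −1 to day 0, were also fitted without those 3 libraries. The labels do not say that replicates were separate cultures, so p-values measure the spread between these libraries. In bulk RNA, fewer cells of a type and less RNA per cell cannot be told apart.

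The 3′ UTRs of the members were searched for short words because, as background, an siRNA can pair through its seed with the 3′ UTR of transcripts other than its target. All 16218 words of 7 bases found in the 3′ UTRs of at least 50 genes were ranked by how low the day −1 fold changes of the genes holding them were, on the sense strand, with the 4 members and Kdm5c left out. Each of the 4 members held at least 1 of the first 16 words, as did 37.2% of the 10987 3′ UTRs ranked. The number of words kept was set after values had been seen, so the count is a description. It depended on that number: of the first 8 words, 3 members held at least 1 and Gem held 0. The share of all 3′ UTRs holding any of those 8 was not computed. The following windows, from GENCODE M21 on GRCm38 and written 5′ to 3′ along the transcript, show 1 or 2 of the words in each member, in capitals.
Nrn1, chr13:36726371-36726397, minus strand: accgatcagtGAGCGAGcgagcacagc
Trub1, chr19:57488665-57488691, plus strand: ttcttaaatcCCGGGAAtcaatacgtt
Trub1, chr19:57488937-57488963, plus strand: tctctgtgacTGCGGAAccctggtcca
Gem, chr4:11713900-11713926, plus strand: accaagtgcaCGGGCAAtgaatgagct
Trib2, chr12:15792518-15792544, minus strand: aaagagtaaaCGGGCAAtaagccaaaa

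Gem and Trib2 held the same word, CGGGCAA, which 1.72% of the ranked 3′ UTRs held. Calm3, an early lowered gene outside the group, also held CGGGCAA, together with TGCGGAA of Trub1 and GGGCAGC of Trib2. CCGGGAA, at rank 1 and found in Trub1, was held by 3.83%, GAGCGAG of Nrn1 by 4.61% and TGCGGAA of Trub1 by 2.28%. Nrn1 carried GAGCGAG in a pair of overlapping copies and also held GCGCGGG, while Trib2 also held AACGGGC, which overlaps its CGGGCAA, and GGGCAGC. Of the first 16 words, 14 contained the dinucleotide CG, against 33% of all ranked words. The 3′ UTRs of the members were 42.0% (Nrn1), 42.4% (Trub1), 35.3% (Gem) and 42.5% (Trib2) G or C, against a median of 45.1%. Among 3′ UTRs within 20% of a member's length, the share holding any of the first 16 words ran from 28.1% (Gem, 999 bases) to 54.3% (Trub1, 2737 bases), so the longer members were more likely to hold one.

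The Kdm5c transcript itself (6449 bases) contained 6 of the 16 words, among them all 4 words shown above. GCGCGGG of Nrn1 and AACGGGC of Trib2, whose windows are not shown, did not occur in it. The words shown are therefore not a fair sample of those the members held. For comparison, 29% of all ranked words occurred in it. Its coding windows are printed for 3 of these, the words shown for Trub1, for Nrn1, and for Gem and Trib2, again in capitals.
Kdm5c, chrX:152248462-152248488, plus strand: agcaagctacCCGGGAAtatactctgc
Kdm5c, chrX:152266562-152266588, plus strand: caccgaggctGAGCGAGaggcttttga
Kdm5c, chrX:152242138-152242164, plus strand: ttatggacgaCGGGCAAagagactaca

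The longest runs that the members' windows shared with the Kdm5c transcript around these words were 8 bases for Nrn1, 9 for Trub1 and 8 for Gem and Trib2. The word alone gives 7 of these bases, and how often runs of such lengths arise was not computed. Of 4 other early lowered genes set beside the members, Calm3, Arf3 and Dmp1 held at least 1 of the first 16 words and Map4, whose day −2 fold change was lower than that of every member, held none. Unlike the members, these 4 genes took part in the ranking, so the words they held were ranked partly on their own values. Among 3′ UTRs of similar length, 38.7% (Calm3), 60.8% (Arf3), 30.5% (Dmp1) and 56.8% (Map4) held at least 1. The sources used here do not give the sequences of the siRNA pools, and a part of seed pairing in the losses was not tested.

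All 4 members fell on day −1, and Nrn1, Trub1 and Gem also fell on day 0, when Trib2 was level with scramble. A gene said to fall or rise on a day was lower or higher in the knockdown than in scramble of that day. In the edgeR quasi-likelihood test, with Benjamini-Hochberg adjustment over all genes and calls at an adjusted p under 0.05, 4 of 4 members were thus called lower on day −1 and 3 of 4 on day 0, against 16.8% and 15.7% of the 12016 genes (18.8% and 19.2% were called higher). Since the members were picked on day −2 of the same series, a closer background is the 1419 genes called lower on day −2 (11.8%). Of these, 66.5% were called lower again on day −1 and 45.6% on day 0. They include losses of any size, while the members were picked among the largest, so these shares are not matched to that choice. The shares among genes with day −2 losses as large as those of the members were not computed. In an exact 2-sided permutation test of the CPM of 5 against 5 libraries, p was 0.00794 for all 4 genes on day −1 and for Nrn1, Trub1 and Gem on day 0, the smallest value this design allows, and 0.587 for Trib2 on day 0. Libraries did not overlap, with knockdown lower, for 8.75% of all genes on day −2, 11% on day −1 and 10.7% on day 0. The later effect was called less negative than the earlier one for Nrn1, Gem and Trib2, against 4.12% of all genes called in that direction. That share covers all genes, lowered or not, and the share among genes called lower on day −2 was not computed. Of the 4 other early lowered genes, 3 were called in the same direction. For Kdm5c itself the difference was 0.42 (edgeR adjusted p = 3.54e-06). From the highest difference down, Trib2 held rank 33, Gem 216, Nrn1 627 and Trub1 662 of 12016.

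Nrn1 stayed below scramble on all 3 days, with a gap that was smallest on day 0. The gene (ENSMUSG00000039114) lies at chr13:36725361-36735131 on the minus strand. On day −2 the scramble libraries held 78.5, 78.4, 80.9, 77.5 and 72.4 CPM and the Kdm5c siRNA libraries 36.1, 35.7, 37.5, 37.0 and 38.1 CPM. On day −1 they held 60.2, 56.6, 55.3, 55.6 and 56.2 CPM against 29.3, 29.1, 30.7, 30.1 and 27.8 CPM. The highest knockdown library thus lay far below the lowest scramble library on both days. On day 0 the scramble libraries were more spread out, at 46.8, 57.1, 51.7, 58.9 and 54.5 CPM, against 29.5, 33.5, 33.3, 32.2 and 32.9 CPM, still with no overlap.

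In group means, Nrn1 fell on day −1 from 56.8 ± 1.98 to 29.4 ± 1.11 CPM (SD, n = 5 libraries). The log2 fold change was −0.95 with an SE of 0.05 (edgeR adjusted p = 2.26e-19). On day 0 it fell from 53.8 ± 4.77 to 32.3 ± 1.61 CPM (log2 change −0.74 with an SE of 0.05, edgeR adjusted p = 6.16e-16). The level was 47.6% of scramble on day −2, 51.7% on day −1 and 60.0% on day 0. Between day −1 and day 0 the scramble level did not change beyond the spread (log2 −0.04, 95% interval −0.13 to 0.05, edgeR adjusted p = 0.374), while the knockdown level rose by 0.17 (SE 0.05, edgeR adjusted p = 0.00161). The difference between the day 0 and day −1 effects was 0.21 (SE 0.06, edgeR adjusted p = 0.0371). That call was close to the threshold: it was lost in 11 of the 20 fits that left out 1 library, with adjusted p up to 0.0828. These were the fits without Kdm5c siRNA replicates 1, 2 or 5 of day −1, Kdm5c siRNA replicates 2, 3, 4 or 5 of day 0, scramble replicates 1 or 2 of day −1, and scramble replicates 1 or 3 of day 0, and the estimate stayed between 0.16 and 0.25 over all 20. Without scramble replicates 1 to 3 of day −1 the difference was 0.19 (edgeR adjusted p = 0.159) and the day −1 fold change was −0.93 (edgeR adjusted p = 2.97e-14).

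Control cells also lost Nrn1 between the earlier days. The scramble mean was 77.5 ± 3.15 CPM on day −2 and 56.8 ± 1.98 CPM on day −1, and the knockdown mean was 36.9 ± 0.99 and 29.4 ± 1.11 CPM. Every knockdown library of every day lay below every scramble library of every day, so the highest knockdown value, 38.1 CPM, was below the lowest scramble value, 46.8 CPM. Nrn1 overlaps Fars2 and an antisense gene model on the other strand, and the sources used here do not give the read counter or how it handled strand. Fars2, which encodes a mitochondrial phenylalanyl-tRNA synthetase, had log2 fold changes of −0.11, −0.16 and −0.10 on the 3 days, none of which passed the test (edgeR adjusted p = 0.328, 0.0628 and 0.27). The tested neighbour on the other side, Rreb1, a zinc finger gene 1043.3 kb away, fell by 0.14 on both day −1 and day 0 (edgeR adjusted p = 0.000141 and 0.000157).

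**Figure D1:**
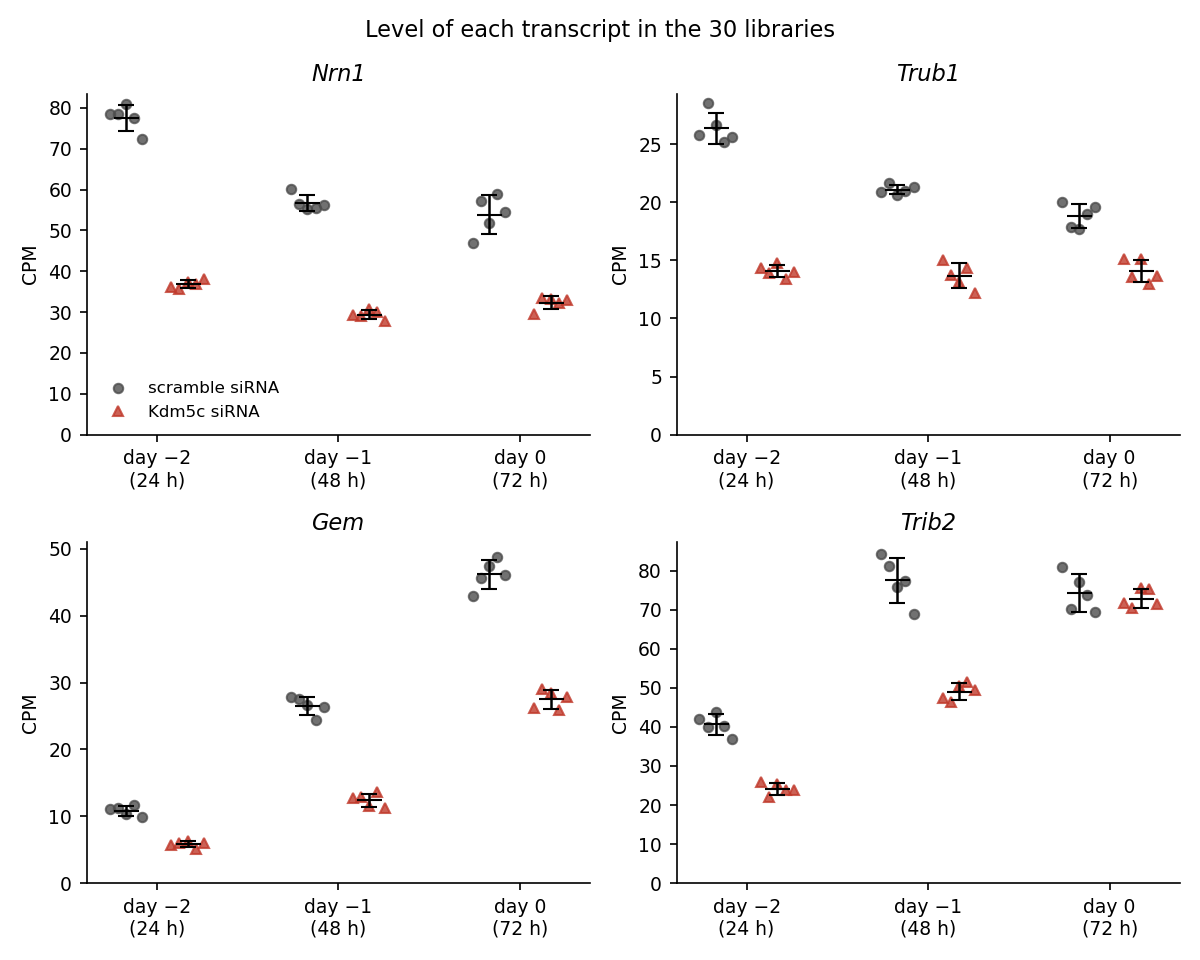
CPM of Nrn1, Trub1, Gem and Trib2 (vertical axes, each from 0) on the 3 days (horizontal axes) in scramble (grey circles) and Kdm5c siRNA libraries (red triangles); each point is 1 library, and black lines are means ± SD over 5 libraries. The arms stay apart on every day for Nrn1, Trub1 and Gem, while the day 0 libraries of Trib2 overlap at 69.5 to 80.9 CPM.

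In CPM, Trub1 showed a knockdown level that hardly moved over the 3 days while the scramble level came down. The gene (ENSMUSG00000025086) lies at chr19:57452912-57491005 on the plus strand. Its scramble libraries held 25.8, 28.5, 26.6, 25.2 and 25.6 CPM on day −2, and its Kdm5c siRNA libraries 14.4, 13.9, 14.8, 13.4 and 13.99 CPM. On day −1 they held 20.9, 21.7, 20.6, 20.9 and 21.3 CPM against 15.03, 13.8, 13.2, 14.3 and 12.2 CPM. On day 0 they held 20.1, 17.9, 17.7, 18.97 and 19.6 CPM against 15.2, 13.6, 15.1, 12.98 and 13.7 CPM. No knockdown library reached a scramble library of any day, and the gap between the nearest ones was narrowest on day 0.

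Trub1 fell on day −1 from 21.1 ± 0.40 to 13.7 ± 1.10 CPM (log2 change −0.62 with an SE of 0.05, edgeR adjusted p = 2.92e-13) and on day 0 from 18.8 ± 1.03 to 14.1 ± 0.97 CPM (−0.42, SE 0.05, edgeR adjusted p = 1.66e-08). The level was 53.5%, 65.0% and 74.8% of scramble on the 3 days. The scramble level fell from day −1 to day 0 by 0.13 on the log2 scale (SE 0.05, edgeR adjusted p = 0.0192), a call that was lost without scramble replicate 2 or 3 of day 0 (edgeR adjusted p = 0.0549 and 0.0683) and without scramble replicates 1 to 3 of day −1 (0.0771). The knockdown level changed by 0.08 over the same interval, which did not pass the test (95% interval −0.03 to 0.19, edgeR adjusted p = 0.162). The difference between the day 0 and day −1 effects was 0.21 (SE 0.07, 95% interval 0.06 to 0.36), with an edgeR adjusted p of 0.0815 that did not pass the threshold. It did pass in the fits without Kdm5c siRNA replicate 1 of day −1 (0.0423), without Kdm5c siRNA replicate 4 of day 0 (0.0463) and without scramble replicate 1 of day 0 (0.048). Without scramble replicates 1 to 3 of day −1 the difference was again 0.21 (edgeR adjusted p = 0.176) and the day −1 fold change −0.63 (2.09e-09).

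In the 3 knockdown groups the Trub1 mean was 14.1 ± 0.54, 13.7 ± 1.10 and 14.1 ± 0.97 CPM. In the scramble groups it was 26.4 ± 1.33, 21.1 ± 0.40 and 18.8 ± 1.03 CPM. In CPM the control mean thus came down from day −2 to day 0 while the knockdown mean ended where it began. The edgeR model also scales libraries beyond their totals. There the log2 change from day −2 to day −1 was −0.12 in the knockdown and −0.40 in scramble, values with no test. From day −1 to day 0 the estimates given above, −0.13 in scramble and 0.08 in the knockdown, brought the arms closer, but the difference between them was not called. The neighbours of Trub1 that were tested, Fam160b1 and Atrnl1, had log2 fold changes between −0.01 and 0.05 on the 3 days, and none passed the test.

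Gem rose steeply with time in both arms and remained below scramble on each day. The gene (ENSMUSG00000028214) lies at chr4:11704457-11714752 on the plus strand. On day −2 the scramble libraries held 11.1, 11.2, 10.3, 11.7 and 9.86 CPM and the Kdm5c siRNA libraries 5.73, 6.07, 6.38, 5.15 and 5.97 CPM. On day −1 they held 27.9, 27.6, 26.6, 24.4 and 26.3 CPM against 12.8, 12.9, 11.5, 13.6 and 11.3 CPM. On day 0 they held 43.0, 45.7, 47.4, 48.9 and 46.1 CPM against 26.1, 29.02, 28.5, 25.9 and 27.9 CPM. The arms did not overlap on any day, but the knockdown libraries of day 0 overlapped the scramble libraries of day −1.

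Gem fell on day −1 from 26.6 ± 1.37 to 12.4 ± 0.97 CPM (log2 change −1.10 with an SE of 0.05, edgeR adjusted p = 2.76e-20) and on day 0 from 46.2 ± 2.19 to 27.5 ± 1.39 CPM (−0.75, SE 0.05, edgeR adjusted p = 1.26e-16). From day −1 to day 0 it rose by 0.83 in scramble (SE 0.05, edgeR adjusted p = 9.83e-20) and by 1.18 in the knockdown (SE 0.05, edgeR adjusted p = 7.21e-23). The difference between these rises was 0.35 (SE 0.07, edgeR adjusted p = 0.00113), and it was 0.28 without scramble replicates 1 to 3 of day −1 (edgeR adjusted p = 0.0415), when the day −1 fold change was −1.03 (3.79e-15). The share of the scramble level was 54.1%, 46.7% and 59.5% on the 3 days. Gem was thus the one member whose fold change was lower on day −1 than on day −2, and its day 0 and day −2 fold changes differed by 0.14, a value with no test.

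On the CPM scale the Gem gap did not close: scramble exceeded knockdown by 4.97, 14.2 and 18.7 CPM on the 3 days, while the level rose in both arms. The order of its group means was 5.86 ± 0.46 CPM in the day −2 knockdown, 10.8 ± 0.74 in day −2 scramble, 12.4 ± 0.97 in the day −1 knockdown, 26.6 ± 1.37 in day −1 scramble, 27.5 ± 1.39 in the day 0 knockdown and 46.2 ± 2.19 in day 0 scramble. Libraries overlapped between day −2 scramble and the day −1 knockdown, and between day −1 scramble and the day 0 knockdown. Of its tested neighbours, Rad54b did not pass on any day, and Pdp1, a phosphatase of the pyruvate dehydrogenase complex, fell by 0.12 on day −1 and by 0.16 on day 0 (edgeR adjusted p = 0.0321 and 0.00569); without scramble replicates 1 to 3 of day −1 the first of these calls was lost (0.227).

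Trib2 was the member that reached the scramble level within the 72 h. The gene (ENSMUSG00000020601) lies at chr12:15791727-15816922 on the minus strand. On day −2 the scramble libraries held 42.1, 39.9, 43.9, 40.2 and 37.0 CPM and the Kdm5c siRNA libraries 25.97, 22.1, 25.3, 23.8 and 23.8 CPM. On day −1 they held 84.2, 81.2, 75.8, 77.3 and 69.0 CPM against 47.3, 46.5, 50.6, 51.4 and 49.3 CPM, with no overlap. On day 0 they held 80.9, 70.1, 77.2, 73.7 and 69.5 CPM against 71.6, 70.5, 75.6, 75.2 and 71.3 CPM, and every knockdown value lay inside the scramble range.

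Trib2 fell on day −1 from 77.5 ± 5.79 to 49.0 ± 2.11 CPM (log2 change −0.66 with an SE of 0.05, edgeR adjusted p = 8.5e-13). On day 0 the means were 74.3 ± 4.81 and 72.9 ± 2.36 CPM, a log2 fold change of −0.03 (edgeR adjusted p = 0.707) with a 95% interval from −0.12 to 0.07. The interval excludes a loss as large as that of day −1, and a loss of a few percent could not be told from none; without scramble replicate 1 of day 0 the estimate was 0.0046 (edgeR adjusted p = 0.952). The scramble level was level from day −1 to day 0 within the spread (−0.03, 95% interval −0.12 to 0.07, edgeR adjusted p = 0.617), while the knockdown level rose by 0.61 (SE 0.05, edgeR adjusted p = 3.75e-13). The sign of that scramble estimate turned without scramble replicate 1 of day −1 (0.0047) and without replicates 1 to 3 of that day (0.055). The difference between the 2 effects was 0.63 (SE 0.07, edgeR adjusted p = 9.38e-08), and 0.55 without those 3 libraries (edgeR adjusted p = 1.17e-05), when the day −1 fold change was −0.58 (2.2e-09).

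The knockdown mean of Trib2 was 24.2 ± 1.51, 49.0 ± 2.11 and 72.9 ± 2.36 CPM on the 3 days, and the scramble mean 40.6 ± 2.59, 77.5 ± 5.79 and 74.3 ± 4.81 CPM. The share of scramble was 59.5%, 63.2% and 98.1%, so nearly all of the closing came in the last interval. The tested neighbours lie far away on the chromosome: Lpin1, a phosphatidic acid phosphatase gene 718.7 kb off, fell on day −1 by 0.19 (edgeR adjusted p = 0.0315; 0.0056 and 0.969 without scramble replicates 1 to 3 of that day) with values of −0.06 on the other days, and Nbas was higher by 0.10 on each day (edgeR adjusted p = 0.00566, 0.00185 and 0.00202).

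**Figure D2:**
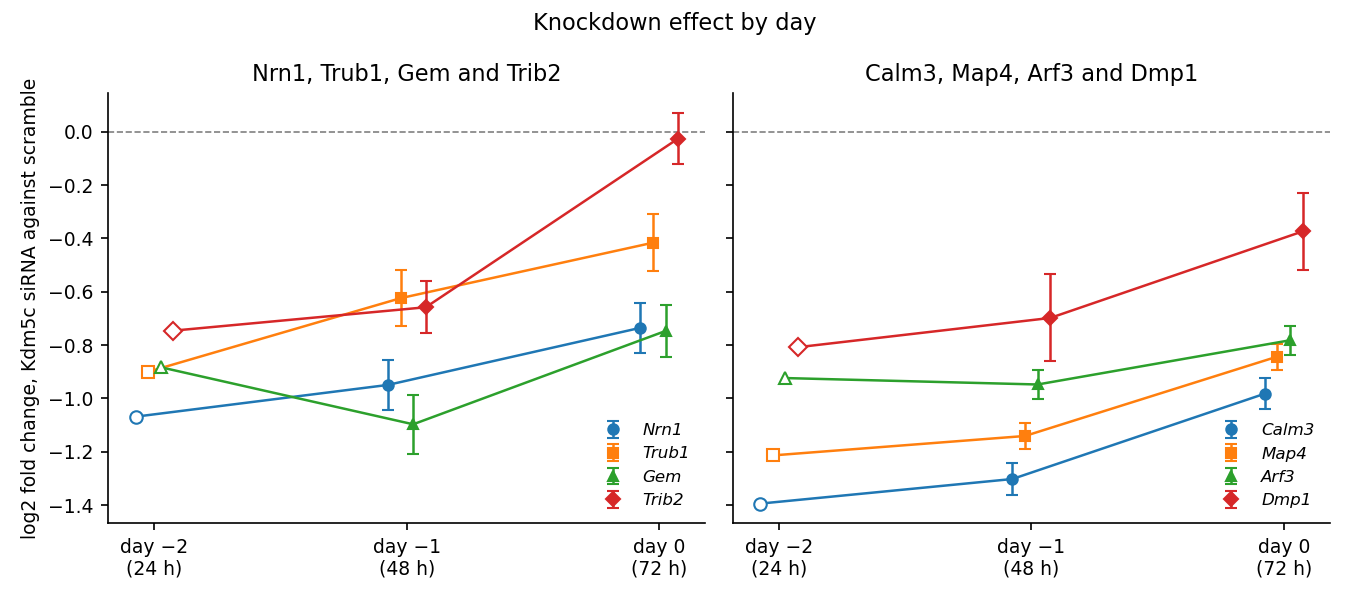
Log2 fold change of Kdm5c siRNA against scramble (vertical axis) by day for the 4 members (left) and 4 other genes with large day −2 losses (right). Filled symbols carry 95% intervals from the edgeR model, and open day −2 symbols have none because the genes were chosen on them; Trib2 ends at −0.03 while the other 7 genes end between −0.98 and −0.37.

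Calm3, one of the calmodulin genes, Map4, which encodes a protein bound to microtubules, Arf3, a GTPase of vesicle traffic, and Dmp1, a matrix protein gene, were set beside the members as other genes low on day −2. Their day −1 log2 fold changes were −1.30, −1.14, −0.95 and −0.70 and their day 0 values −0.98, −0.84, −0.78 and −0.37, all called lower on both days. The difference between the days was called for Calm3 (0.32), Map4 (0.30) and Arf3 (0.17), and was 0.32 for Dmp1 (edgeR adjusted p = 0.0576). Without scramble replicates 1 to 3 of day −1 these differences were 0.31, 0.29, 0.17 and 0.15, the first 3 still called and that of Dmp1 not (edgeR adjusted p = 0.56). A smaller gap on day 0 was thus also measured in genes outside the group, at sizes like those of Nrn1, Trub1 and Gem. The difference of Trib2 (95% interval 0.50 to 0.77) lay above the intervals of Calm3 (0.24 to 0.40), Map4 (0.23 to 0.37) and Arf3 (0.09 to 0.24) and overlapped that of Dmp1 (0.11 to 0.54). These contrasts share the day −1 and day 0 libraries of both arms, and genes were not tested against each other.

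**Figure D3:**
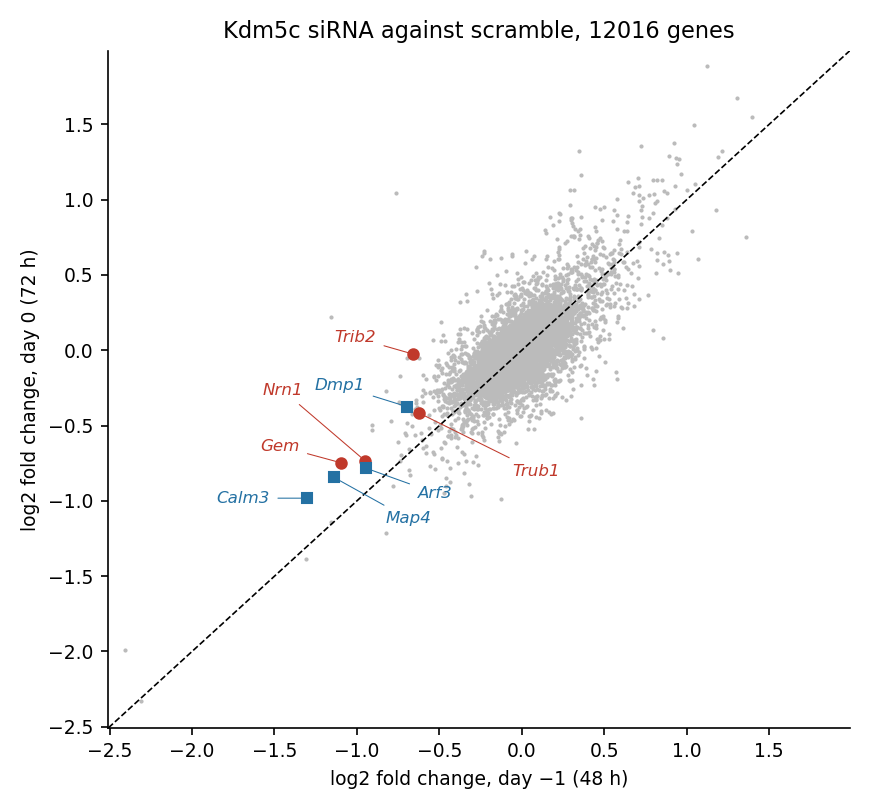
Log2 fold change of Kdm5c siRNA against scramble on day −1 (horizontal axis) and day 0 (vertical axis) for 12016 genes (grey), the 4 members (red circles) and 4 other early lowered genes (blue squares); the dashed line marks equal values. All 8 named genes lie above the line, and of the 8 Trib2 lies farthest from it, at −0.66 and −0.03.

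The changes within each arm between 48 and 72 h differed between the members. In Nrn1 and Trib2 only the knockdown arm was called, upward. In Trub1 only the scramble arm was called, downward, and in Gem both arms rose. Over all genes, 74.4% were called between these days in scramble and 74.5% in the knockdown, so a change with time was common in both arms.

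**Figure D4:**
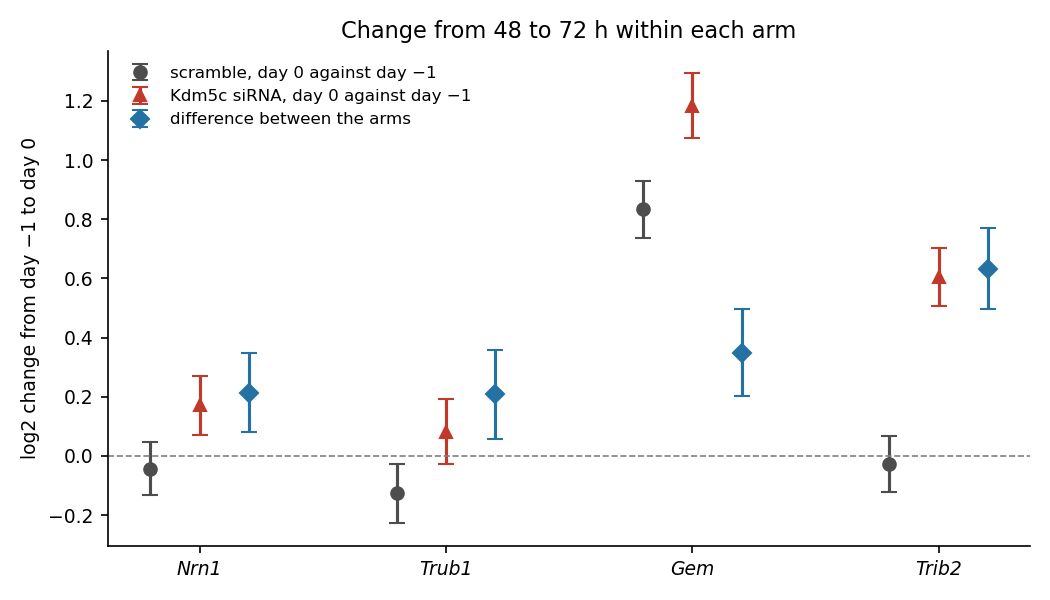
Log2 change from day −1 to day 0 (vertical axis) of each member in scramble (grey circles) and Kdm5c siRNA cells (red triangles), and the difference between the arms (blue diamonds), with 95% intervals from the edgeR model. The difference runs from 0.21 in Nrn1 and Trub1 to 0.63 in Trib2.

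Per kilobase of annotated exon, Nrn1 was the most abundant member in scramble cells on day −2, at 34.5 ± 1.40 CPM per kb, followed by Trib2 at 9.37 ± 0.60, Gem at 5.14 ± 0.35 and Trub1 at 4.71 ± 0.24 CPM per kb, the last pair with overlapping libraries. On day 0 the scramble levels were 23.9 ± 2.12 for Nrn1, 21.96 ± 1.04 for Gem, 17.1 ± 1.11 for Trib2 and 3.37 ± 0.18 CPM per kb for Trub1, and the libraries of Nrn1 and Gem overlapped. In the day 0 knockdown the order was Trib2 at 16.8 ± 0.54, Nrn1 at 14.4 ± 0.72, Gem at 13.1 ± 0.66 and Trub1 at 2.52 ± 0.17 CPM per kb, again with overlapping libraries of Nrn1 and Gem.

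Over the 30 libraries the members fell into pairs. Nrn1 and Trub1, whose scramble means were highest on day −2, had a Pearson r of 0.956 between their log2 CPM, and Gem and Trib2, whose scramble means were lowest on day −2, had one of 0.936. The other 4 pairs had r between 0.074 and 0.136. These correlations are descriptions over libraries that share days and siRNAs, and carry no test. The genes with the profile most like that of Nrn1 were Frs2 (r = 0.97), an adaptor of growth factor receptors, Akt1 (0.963), a kinase of insulin and growth factor signalling, and Trub1. For Trub1 they were Nrn1, Frs2 (0.953) and Pdcd7 (0.945), which encodes a protein of the minor spliceosome. For Gem they were Pik3r2 (0.992), a regulatory subunit of phosphoinositide 3-kinase, Snx9 and Rab22a (0.984 each), both genes of membrane traffic. For Trib2 they were Nab2 (0.973), a co-repressor of EGR proteins, Rxra (0.973), a nuclear receptor partner of PPAR gamma, and Sertad4 (0.968).

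Likeness by the 3 fold changes alone gave other genes. Nearest to Nrn1 were Arf3 (Euclidean distance 0.152 on the log2 scale), Gem (0.237) and Map4 (0.263), and nearest to Gem were Arf3 (0.159), Nrn1 (0.237) and Map4 (0.347). Trub1 was nearest to Dmp1 (0.126), Plekha6 (0.144) and Echdc1 (0.258). Trib2 was nearest to Tmem202 (0.247), Cygb (0.31), the gene for cytoglobin, and Rbm47 (0.318), an RNA-binding protein gene. These 3 had day 0 values of −0.15, −0.04 and −0.05, near that of Trib2, after day −1 values of −0.48, −0.41 and −0.62.

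Relatives of the members in the same families had smaller losses, rose or did not pass the test, and no direction given here for a called gene of these lists turned under the other scalings. In the RGK family, Rrad was level on day −1 (log2 −0.01, edgeR adjusted p = 0.937) and rose on day 0 by 0.20 (edgeR adjusted p = 0.00743), while Rem1 and Rem2 were below the filter, with means of at most 0.06 CPM. Of the 3 relatives of Trib2, Trib1 rose by 0.15 on day −1 and by 0.39 on day 0 (edgeR adjusted p = 0.00928 and 1.61e-07), and Stk40, a related pseudokinase gene, fell by 0.30 and by 0.14 (edgeR adjusted p = 1.7e-08 and 0.00234). Trib3, which is induced by cell stress, had values of 0.10 and −0.18 that did not pass the test (edgeR adjusted p = 0.41 and 0.135). On day 0, when Trib2 was at the control level, Trib1 was thus higher and Stk40 lower.

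Of the 12 other pseudouridine synthase genes, 2 rose and 3 fell on day −1, and 1 rose and 2 fell on day 0, with medians of 0.03 and −0.02 against 0.00 over all genes on both days. Pus7l fell by 0.44 on day −1 and by 0.24 on day 0 (edgeR adjusted p = 1.34e-08 and 0.000911), and Pus1, which modifies tRNAs and some mRNAs, fell by 0.13 and by 0.12 (0.0146 and 0.0444). Dkc1, the synthase of the H/ACA ribonucleoproteins that modify ribosomal RNA, rose by 0.17 and by 0.18 (0.0182 and 0.0263). Trub2, the closest relative of Trub1, fell by 0.10 on day −1 (edgeR adjusted p = 0.0369) and was at 0.00 on day 0 (0.988). Among 34 tested tRNA modification genes, 8 rose and 1 fell on day −1, and 4 rose and 3 fell on day 0. Trmt2b, which encodes a mitochondrial methyltransferase, fell on both days by 0.17 and by 0.14 (edgeR adjusted p = 0.00329 and 0.0119), while Nsun2, which makes 5-methylcytosine in tRNAs, rose by 0.12 and by 0.17 (0.000557 and 1.26e-05).

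**Figure D5:**
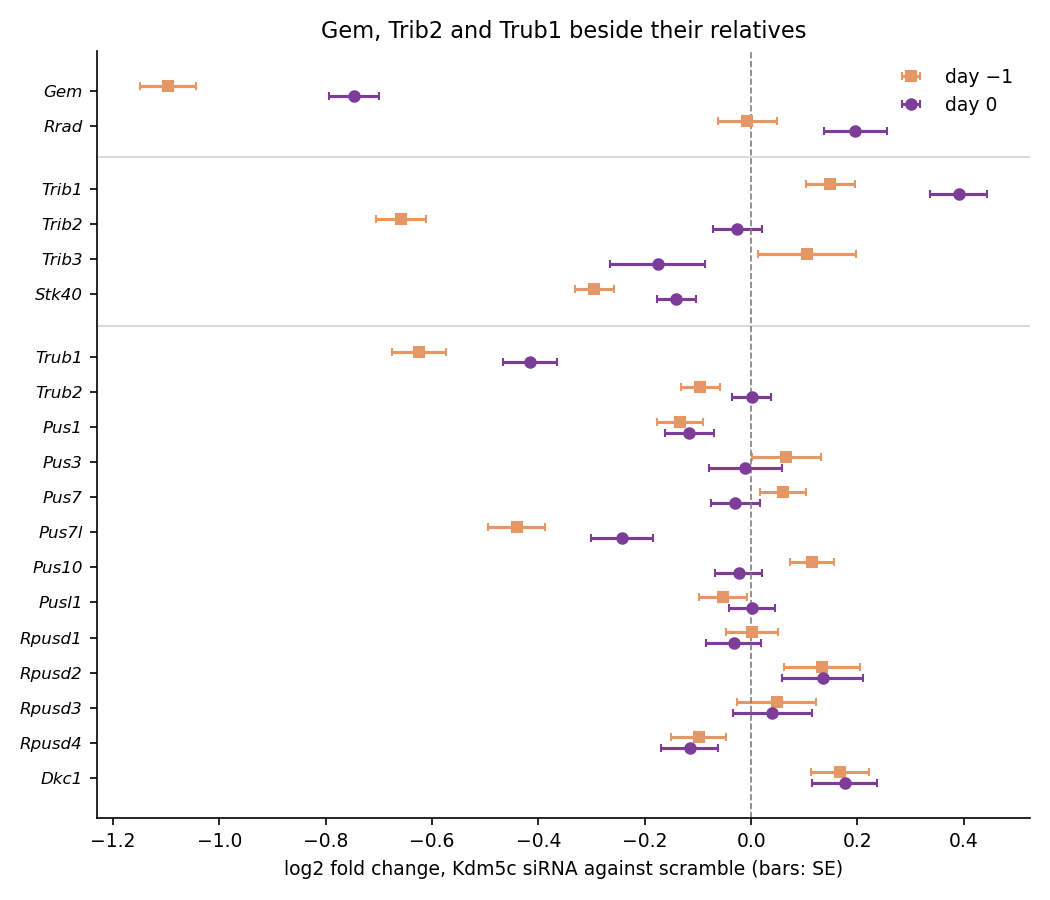
Log2 fold change of Kdm5c siRNA against scramble (horizontal axis; bars are SE of the edgeR model) on day −1 (orange squares) and day 0 (purple circles) for the tested genes of the RGK, Tribbles and pseudouridine synthase families. Gem, Trib2 and Trub1 have the lowest day −1 values of their families, at −1.10, −0.66 and −0.62.

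Of 18 tested partners of Gem, 4 rose and 3 fell on day −1, and 7 rose and 2 fell on day 0. Calm3 fell as given above, while Calm2, another calmodulin gene, rose on day 0 by 0.09 (edgeR adjusted p = 0.00178). Rock2, which encodes a kinase of the actin cytoskeleton, rose by 0.13 on day −1 and by 0.12 on day 0 (edgeR adjusted p = 4.77e-05 and 0.00016). Among the calcium channel beta subunit genes, Cacnb1 fell on day −1 by 0.49 (0.000296) from a mean of 5.44 CPM, Cacnb3 fell on day −1 by 0.07 (0.00824) and Cacnb2 fell on day 0 by 0.30 (0.000735).

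Of 23 tested partners and substrates of Tribbles proteins, 3 rose and 6 fell on day −1, and 4 rose and 6 fell on day 0. Akt1 fell by 0.61 and by 0.42 (edgeR adjusted p = 7.13e-26 and 3.73e-20), from scramble means of 527 and 459 CPM. Acaca, the acetyl-CoA carboxylase gene, fell by 0.27 and by 0.18 (1.71e-12 and 3.27e-08), and Akt2 by 0.12 and by 0.10 (0.000211 and 0.00149). Cdc25a, a cell cycle phosphatase gene, rose by 0.23 and by 0.22 (3.11e-06 and 4.8e-05). Akt1 thus stayed low on day 0, when Trib2 did not.

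Of the 10 tested genes of neurotrophin signalling beside Nrn1, 6 rose and 1 fell on each of day −1 and day 0. Frs2 fell by 0.40 and by 0.29 (edgeR adjusted p = 3.47e-14 and 2.32e-10). Ntrk3, a neurotrophin receptor gene, was higher in the knockdown by 0.35 on day −1 and by 1.33 on day 0 (edgeR adjusted p = 0.00111 and 6.5e-11). Its mean CPM came down from day −1 to day 0 in both arms. Bdnf, a neurotrophin that can induce Nrn1 in neurons, was higher by 0.17 and by 0.21 (edgeR adjusted p = 0.00285 and 0.000309). The relative Nrn1l was below the filter, with at most 0.01 CPM in any group mean. Of 14 tested activity-regulated genes, 3 rose and 4 fell on day −1 and 4 rose and 3 fell on day 0, with Egr1 lower by 0.30 and 0.19 (0.000248 and 0.00856) and Nr4a1 higher on day 0 by 0.44 (5.11e-07). Of 26 tested genes of GPI anchor synthesis and transfer, 5 rose and 4 fell on day −1 and 4 rose and 3 fell on day 0, and Pgap3, which remodels GPI anchors, fell by 0.65 and by 0.56 (1.66e-07 and 1.8e-06). Counts of this size stand against 16.8% and 15.7% of all genes called lower and 18.8% and 19.2% called higher on the 2 days.

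Many of the day −1 calls in these lists were lost when scramble replicates 1 to 3 of that day were left out. Fewer libraries entered that fit, which by itself can cost calls, and no other set of that size was left out. How much of the loss came from these particular libraries was not tested. Of the listed genes called on day −1, markers and other early lowered genes included, 31 were still called in the same direction without those libraries and 39 were not, when the shares over all genes fell to 10.6% called higher and 10.7% called lower. The tRNA modification genes went from 8 higher and 1 lower to 2 higher and 3 lower, the neurotrophin signalling genes from 6 and 1 to 4 and 1, and the Gem partners from 4 and 3 to 1 and 1. The GPI anchor genes went from 5 and 4 to 4 and 2, the activity-regulated genes from 3 and 4 to 2 and 2, the Tribbles partners from 3 and 6 to 1 and 4, and the pseudouridine synthases from 2 and 3 to 0 and 2. Among the genes named, Trib1, Dkc1, Trub2, Nsun2, Cacnb1, Cacnb3, Ntrk3 and Bdnf lost their day −1 call (edgeR adjusted p = 0.146, 0.781, 0.0554, 0.339, 0.147, 0.0817, 0.0668 and 0.14). Akt1 (−0.62), Acaca (−0.26), Frs2 (−0.42), Pus7l (−0.48), Stk40 (−0.29) and Pgap3 (−0.63) remained called lower.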

How the data were processed

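The members and gene lists were chosen with earlier results of these data known. STAR 2.7.2a, edgeR 3.26.8 and GRCm38 are named in the submitters' processing notes; which read counter and annotation were used is not given in the sources used here. CPM values for 55573 genes, deposited by the authors, were whole reads divided by the library total (100% of nonzero values within 0.05 reads), and a second table, deposited as raw counts, held the 12016 genes with at least 1 CPM in 20 or more libraries. The counts equalled the recovered reads in 100% of values, so the count test ran on them directly. The plan was followed as written: edgeR 4.0.16 in R 4.3.3 fitted 6 group means to the 30 libraries by quasi-likelihood with robust moderation, TMM scaling and full library totals (24 residual degrees of freedom, common biological coefficient of variation 0.0367). All tests of genes were 2-sided; p was adjusted over 12016 genes by Benjamini-Hochberg, with calls at an adjusted p under 0.05. SE and intervals are those of the log2 fold change.

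Symbols, coordinates and 3′ UTRs came from GENCODE M21; the longest 3′ UTR of each gene was searched. The script was tested on simulated data. Named genes were the members, Kdm5c, 4 other early lowered genes, the 3 most alike genes per member by each measure, the nearest tested genes on the chromosome, relatives, and up to 4 called genes per list. Predicted genes and pseudogenes were not named, and the values of 1 listed gene are not reported here. Alternatives were other scalings, DESeq2 1.42.0, limma 3.58.1 on log2 CPM, other filters, a replicate block, only the libraries of a contrast, and each library left out. Same-numbered libraries of the 2 arms did not deviate together (correlations from −0.225 to 0.299), so the numbers were not taken as pairs.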

Additional observations from a re-analysis of the deposited data

Results flagged for a closer look

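Chance flags about 1 in 20 groups as having a library that stands out, and 24 groups of the members were examined by the gap between an extreme library and its neighbour. One was beyond the limit of 0.71 of the range: replicate 1 of day −1 scramble held 60.2 CPM of Nrn1, while the other 4 libraries held 55.3 to 56.6 CPM.

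The knockdown effect differed between day 0 and day −1, by the test of the difference itself, for 3 members. The log2 differences were 0.21 for Nrn1, 0.35 for Gem and 0.63 for Trib2 (edgeR adjusted p = 0.0371, 0.00113 and 9.38e-08). The Nrn1 call lay near the threshold and was lost in 11 of the 20 fits that left out 1 library. Trub1 also had a difference of 0.21, which was not called (edgeR adjusted p = 0.0815).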

How the results depend on the processing

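All 88 alternative values of the members' day −1 effects, and 83 of 84 of their day 0 effects, kept their direction and side of the threshold; the exception was Trib2 on day 0 without scramble replicate 1 of that day (0.0046, and 0.234 CPM for the difference of means). Leaving out 1 library at a time gave −0.048 to 0.0046 for that fold change and −2.61 to 0.234 CPM for that difference. For the change between the days, the same gave 0.16 to 0.25 for Nrn1, 0.17 to 0.24 for Trub1, 0.32 to 0.39 for Gem and 0.60 to 0.67 for Trib2, and the calls for Nrn1 and Trub1 moved across the threshold. The Nrn1 call was also lost with only the libraries of the contrast (0.22, edgeR adjusted p = 0.0809) and, in an alternative chosen after seeing the data, with scramble replicates 1 to 3 of day −1 left out (0.19). That last setting gave 2555 called genes on day −1 in place of 4268, and 449 in place of 714 for the difference between days; fewer libraries entered it. It turned the scramble change of Trib2 to 0.055, as leaving out its replicate 1 did; leaving out 1 library gave −0.065 to 0.0047 there, and −0.081 to 0.0072 for the scramble change of Nrn1, which turned without scramble replicate 1 of day 0. With limma on log2(CPM + 2), the day −2 values of Gem and Trub1 moved to −0.71 and −0.82, and the day 0 minus day −2 difference of Gem turned from 0.14 to −0.0027. The larger pseudocount shrinks the fold changes of low genes by construction. With a replicate block, the count of called genes was 4195 on day −1, 4148 on day 0 and 720 for their difference, and no call on the members' effects or on the change between the days moved. Under the other 2 scalings, the called genes of the lists on days −1 and 0 kept their direction, and Trmt61a and Ywhag lost a call without scaling. With the words ranked on day 0, 2 of the 16 words were shared with those ranked on day −1 and 74.1% of 3′ UTRs held 1 or more, so membership then says little; all 4 members held one.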
